A study of Danio rerio with 3 samples.

Results

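Lysosomal genes other than the ctsk group of osteoclast-type genes were followed in cells sorted for mpeg from ptpn6 mutant zebrafish embryos and from their siblings. The list held 40 genes for lysosomal hydrolases, soluble cofactors and granulins, membrane proteins, the proton pump and the transcription factor tfeb, and 31 of them were matched by symbol to a row among the 21915 gene IDs of the tables. The match covered 14 of 18 hydrolases, 5 of 5 soluble cofactors and granulins, 4 of 7 membrane proteins, 7 of 9 proton pump genes and tfeb. The genes ctsa, ctsc, gba, gaa, lamp1a, laptm5, scarb2a, atp6v1ba and tcirg1b were not matched and are not analysed here. Of the matches, 7 rested on a symbol without its paralogue letter, so the pairs of atp6v0c, atp6v1a and asah1 are named with their gene ID, and grna.1 and grna.2 were found through their older symbols grn1 and grn2.

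Wells of 3 plates were sequenced with CEL-Seq2, which barcodes the RNA of a single sorted cell per well and counts transcripts by a unique molecular identifier (UMI) next to the 3′ end. The groups were mutants and siblings of sort day 1, which shared a plate, and mutants and siblings of sort day 2, which had a plate each, all sorted for mpeg at 5 days post fertilization from whole embryos. Siblings may be of more than 1 genotype, which the labels leave undivided, and neither the lesion in ptpn6 nor the number of embryos is given. On sort day 2 genotype and plate cannot be told apart, and on day 1 the division of the shared plate rests on the assumption that its wells are numbered row by row. With at least 1000 gene UMIs required, 138 of 192 mutant wells and 131 of 192 sibling wells of day 1 were kept, and 125 of 384 mutant wells and 199 of 384 sibling wells of day 2. UMIs were summed over the wells of a genotype and day, which gave 4 pools of 1406635 UMIs (mutants, day 1), 1121213 (siblings, day 1), 1290186 (mutants, day 2) and 2185636 (siblings, day 2). Levels are given as CPM (counts-per-million), the UMIs of a gene scaled to the total gene UMIs of its pool. Since the assay counts 1 tag per transcript, levels of different genes were compared per transcript, with no correction for length.

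Lysosomes are acidic organelles in which macrophages digest what they take up. Hydrolases do the digestion, small soluble proteins present lipids to the enzymes or carry them away, membrane proteins protect and shape the organelle, and a rotary proton pump driven by ATP keeps its interior acidic. The factor Tfeb enters the nucleus under starvation or lysosomal stress and raises the transcription of many genes of these classes. Shp1, the phosphatase encoded by ptpn6, dampens signalling downstream of immune and cytokine receptors.

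The targeted transcript was rare. For ptpn6 (ENSDARG00000089043), 5 and 0 UMIs were counted in mutants of days 1 and 2, against 11 and 3 UMIs in siblings, too few to check the genotype labels. Of 3 genes named mpeg1, ENSDARG00000055290 had 187 and 185 CPM in mutants of days 1 and 2, against 178 and 146 CPM in siblings, and ENSDARG00000043093 had 44.1 and 37.2 CPM in mutants, against 27.6 and 77.4 CPM in siblings. ENSDARG00000078569 had 1 UMI in all pools together. The mutant pool of day 1 stood apart in its muscle markers, which took 0.187% of its UMIs, against 0.0251% in siblings of day 1 and 0.00395% and 0.00613% in mutants and siblings of day 2. In the mutant plate of day 2, 250 of 384 wells held under 500 UMIs. Markers of epidermis and metaphocytes (skin cells that share macrophage genes) took 0.0938% and 0.0378% of UMIs in mutants of days 1 and 2, against 0.0547% and 0.0643% in siblings. The day 2 direction differed by gene. The keratin genes krt4, krt5 and krt91 had 18, 0 and 15 UMIs in day 2 mutants and 422, 262 and 221 in siblings, and epcam 27 and 155. Higher in day 2 mutants per pool total were cldnh, with 135 and 44 UMIs, and icn, with 293 and 302.

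The 31 genes together took 1.29% and 1.39% of the UMIs in mutants of days 1 and 2, against 1.096% and 1.30% in siblings. No member passed edgeR's quasi-likelihood test for genotype at a Benjamini-Hochberg adjusted p of 0.05, where 0% of the 8177 genes tested passed and 271 genes (3.31%), none of them a member, had an unadjusted p under 0.05. With the sort day as a block 0.0245% of genes were called, by DESeq2 0.42%, and without the filter on low counts 1.04%, and again none was a member. Of the members, 13 had a fitted log2 fold above 0 and 18 below it, with a median of -0.08, against -0.01 over all genes tested. With 2 pools per genotype, what the test could call was measured on simulated counts. On counts simulated from these pools, 47 of 50 genes raised by a log2 fold of 3 and 20 of 50 raised by 2 were called. Of those lowered by the same amounts, 25 of 50 and 12 of 50 were called. Among 7977 unchanged genes, 10 were called. The changed genes were drawn from those above a floor on counts, and no shift common to the pools of a day was simulated. Spread among the 4 pools, which may itself be technical, is all that the p-values measure.

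Both mutant pools stood above both sibling pools for 7 of 31 members, where 20.3% of all genes tested did so. These were ctsh, both asah1 genes, npc2, grna.1, lamp1b and cd63. Both mutant pools stood below both sibling pools for gns alone, against 8.14% of all genes. By day, 9 of 31 members were higher in mutants on both days and 2 were lower on both days, against 32.9% and 15.8% of all genes. A fitted log2 fold beyond 1 in size was found for 2 of 31 members, gns and atp6v0c (ENSDARG00000036577), against 7.5% of all genes. The members' counts were thus near the background in the upward direction, and a share near the background is no result about the members.

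**Figure D1:**
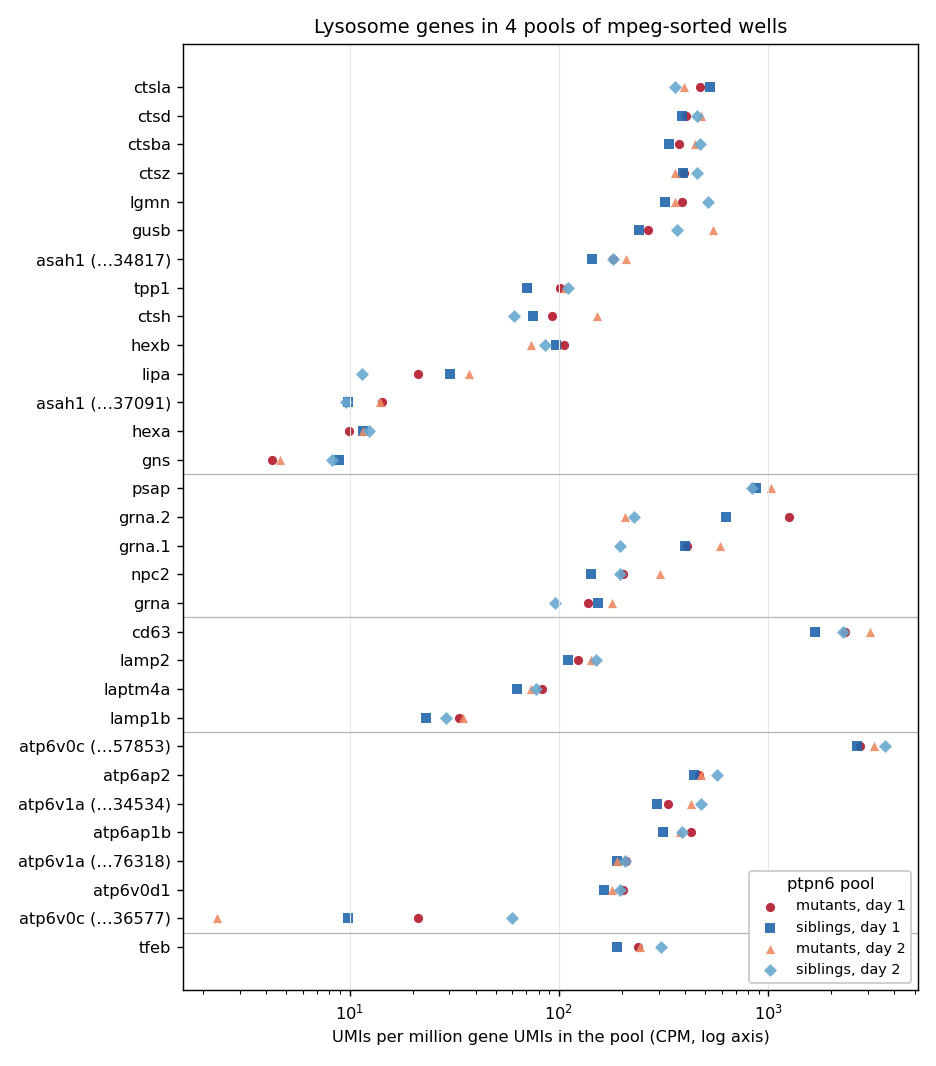
Level of each matched gene in each of the 4 pools, in CPM on a log axis, with hydrolases, soluble cofactors and granulins, membrane proteins, proton pump genes and tfeb separated by lines. The pools lie close together for most abundant genes, while grna.2 spans 208 to 1261 CPM and the atp6v0c gene ENSDARG00000036577 spans 2.3 to 59.5 CPM.

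The share of UMIs taken by hydrolases was slightly higher in mutants in the pooled wells of both days, and on day 2 the direction depended on how wells were weighed. They had 0.282% in mutants and 0.265% in siblings of day 1, a log2 ratio of 0.09 with a 95% counting interval of 0.02 to 0.16, and 0.318% in mutants and 0.311% in siblings of day 2, a log2 ratio of 0.04 with an interval of -0.02 to 0.09. As a mean per well the day 2 log2 ratio was -0.12, after thinning each well to 1000 UMIs it was -0.065, and in the macrophage-like and microglia-like clusters described further on it was -0.31. Of that set on day 2, 39 mutant and 19 sibling wells fell in the larger macrophage-like cluster. The microglia-like one, where hydrolases were highest, held 2 mutant and 37 sibling wells. Wells were standardized within plates, and on day 2 each genotype had its own plate. These counts are therefore no measure of a difference between genotypes. Counting intervals cover counting error alone and say nothing of the spread between pools. Ratios of a single day, here and below, are scaled by pool totals alone. On that scale the median log2 ratio of all genes tested was 0.06 on day 1 and 0.24 on day 2. On day 2 the hydrolases thus lay below the median gene. The most abundant hydrolase gene, ctsd, held 14.7% of the class's UMIs.

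The cysteine protease gene ctsla, encoding cathepsin L, had 471 and 394 CPM in mutants of days 1 and 2, against 527 and 356 CPM in siblings. The aspartic protease gene ctsd had 406 and 474 CPM in mutants, against 386 and 459 CPM in siblings. For both genes the 2 days of a genotype lay farther apart than mutants and siblings of the same day, and the fitted log2 folds were -0.18 (SE 0.32) for ctsla and -0.11 (SE 0.29) for ctsd. The cathepsin B gene ctsba had 373 and 446 CPM in mutants, against 337 and 471 CPM in siblings, with a fitted log2 fold of -0.15 (SE 0.31).

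Transcripts of ctsz, whose product trims single residues from carboxyl ends, were at 394 and 357 CPM in mutants of days 1 and 2, against 393 and 459 CPM in siblings, a fitted log2 fold of -0.34 (SE 0.30). The sibling pool of day 2 was the high one, and the other 3 pools lay together. Legumain, encoded by lgmn, cleaves after asparagine and activates several cathepsins. The gene had 386 and 360 CPM in mutants, against 320 and 516 CPM in siblings, so that mutants were higher on day 1 and lower on day 2, and its fitted log2 fold was -0.33 (SE 0.34). For ctsla, ctsd, ctsba, ctsz and lgmn alike, the adjusted p of edgeR's quasi-likelihood test was 1.00.

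Among the less abundant hydrolases, ctsh, the gene of a cathepsin with aminopeptidase activity, had 92.4 and 152 CPM in mutants of days 1 and 2, against 74.9 and 61.3 CPM in siblings. Its groups did not overlap, its fitted log2 fold was 0.67 (SE 0.38) and its interval ran from -0.20 to 1.54. The β-glucuronidase gene gusb had 265 and 544 CPM in mutants, against 240 and 365 CPM in siblings, with higher levels on day 2 in both genotypes. Acid ceramidase, which splits ceramide in the lysosome, is encoded by asah1. The gene ENSDARG00000034817 of that name had 181 and 208.5 CPM in mutants, against 144 and 181 CPM in siblings, and ENSDARG00000037091 had 14.2 and 13.95 CPM in mutants, against 9.8 and 9.6 CPM in siblings, from 70 UMIs in all.

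The acid lipase gene lipa, whose product frees cholesterol and fatty acids, turned round between days with few UMIs. It had 30 and 48 UMIs in mutants of days 1 and 2, against 34 and 25 UMIs in siblings. The sulfatase gene gns had 40 UMIs in all, namely 6 and 6 in mutants and 10 and 18 in siblings, and its fitted log2 fold was -1.09 (SE 0.78). The remaining hydrolases were tpp1, encoding a tripeptidyl peptidase, with 600 UMIs, and the β-hexosaminidase subunit genes hexb with 540 and hexa with 69 UMIs. Their fitted log2 folds were 0.03 (SE 0.38), -0.18 (SE 0.38) and -0.32 (SE 0.54), each smaller than its error.

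Soluble cofactors and granulins took a larger share in mutants on both days. The class had 0.286% of UMIs in mutants and 0.220% in siblings of day 1, a log2 ratio of 0.38 (counting interval 0.31 to 0.45), and 0.230% in mutants and 0.155% in siblings of day 2, a log2 ratio of 0.57 (0.50 to 0.64). The median log2 ratio of all genes tested was 0.06 on day 1 and 0.24 on day 2. The largest difference in level within the class was that of grna.2 on day 1 and that of grna.1 on day 2. The epidermis and metaphocyte-like wells held most grna.2 UMIs. Without those wells the class had 0.174% of UMIs in mutants and 0.155% in siblings of day 1, a log2 ratio of 0.17, and 0.205% in mutants and 0.135% in siblings of day 2, a log2 ratio of 0.61.

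Markers of other cell types also differed between pools, in both directions. The 4 osteoclast markers with a row took 0.0598% and 0.0972% of UMIs in mutants of days 1 and 2, against 0.0286% and 0.0515% in siblings. On day 2, ctsk had 671 UMIs in mutants and 64 in siblings, and acp5b 112 and 172. Per pool total ctsk was higher in mutants and acp5b slightly higher. Lower per pool total in mutants of that day were ocstamp, with 471 UMIs against 886 in siblings, and calcr, with 0 against 3. The day 2 pools held 1290186 UMIs in mutants and 2185636 in siblings. The 6 neutrophil markers took 0.0465% and 0.150% in mutants, against 0.0357% and 0.0569% in siblings. Of these, lyz had 0 and 799 UMIs in mutants of days 1 and 2, against 0 and 9 UMIs in siblings. The most abundant in every pool but mutants of day 2 was mmp13a, with 477 and 610 UMIs in mutants and 202 and 1073 in siblings. Per pool total mmp13a was higher in mutants on day 1 and slightly lower on day 2. The counts of mmp9 were 135 and 393 UMIs in mutants of days 1 and 2 and 141 and 132 in siblings. Those of npsn were 22 and 109 in mutants and 41 and 17 in siblings, and those of illr4 19 and 21 in mutants and 16 and 12 in siblings. Per pool total, mmp9, npsn and illr4 were lower in mutants on day 1 and higher on day 2. The marker cxcr1 was at 0 UMIs in every pool but siblings of day 2. The 7 microglia markers, all with UMIs in each pool, took 0.219% and 0.415% in mutants, against 0.404% and 0.498% in siblings. The day 2 direction differed by gene. Per pool total, lower in day 2 mutants than siblings were ccl34b.1 (1353 and 4224 UMIs), apoc1 (2211 and 4067) and csf1rb (11 and 21). Higher were apoeb (883 and 1360), slc7a7 (677 and 958), havcr1 (205 and 230) and p2ry12 (10 and 16). The part of all these markers in the levels of the soluble and membrane classes was not tested.

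**Figure D2:**
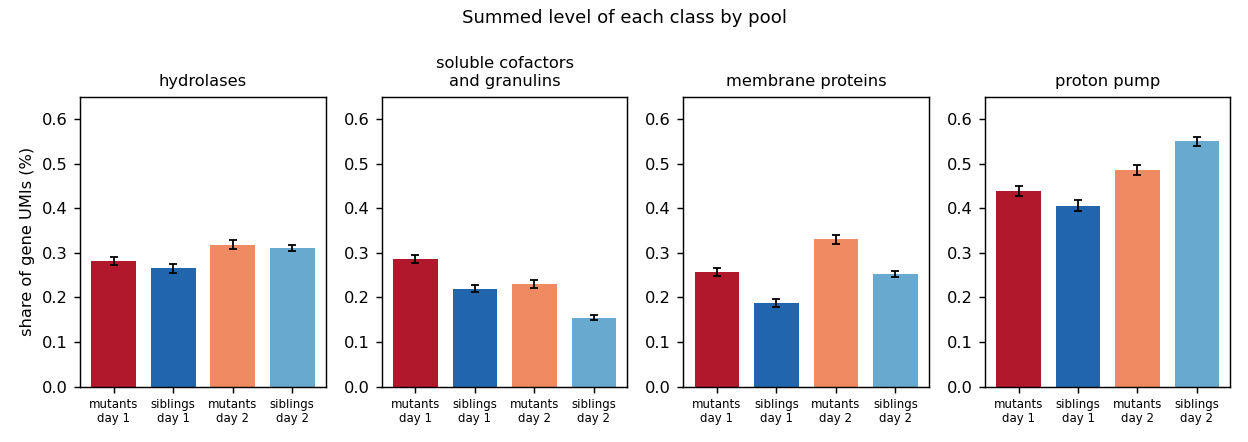
Summed level of each class in each pool as a share of all gene UMIs in percent, with bars for pools and error bars for 95% Poisson counting intervals. Hydrolases lie between 0.265% and 0.318% in all pools, membrane proteins and soluble cofactors are higher in the mutant pool of each day, and the proton pump is highest at 0.550% in siblings of day 2.

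Prosaposin, encoded by psap, is cut into the saposins that help enzymes reach membrane lipids. Summed over the 4 pools it was the most abundant gene of the class, with 849 and 1025 CPM in mutants of days 1 and 2, against 873 and 833 CPM in siblings, a fitted log2 fold of -0.03 (SE 0.25). Mutants of day 2 were the high pool and the other 3 lay within 833 to 873 CPM. The gene npc2 encodes a small protein that carries cholesterol to the lysosomal membrane. It had 203 and 304 CPM in mutants, against 143 and 197 CPM in siblings, with log2 ratios of 0.51 and 0.63 on days 1 and 2, and a fitted log2 fold of 0.40 (SE 0.35, adjusted p of edgeR's quasi-likelihood test 1.00).

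Granulins are small cysteine-rich modules released in lysosomes, and in zebrafish grna encodes a full-length progranulin while grna.1 and grna.2 encode short forms. The short-form gene grna.2 had 1261 and 208 CPM in mutants of days 1 and 2, against 630 and 228 CPM in siblings. Without the 3 highest wells of each pool it had 733 and 59.5 CPM in mutants, against 153 and 49.6 CPM in siblings. The 2 pools of day 1 were the high ones in either genotype, so that the genotypes overlapped. Its fitted log2 fold was 0.67 with an SE of 0.77, and it was -1.21 without the mutant pool of day 1. For grna.1 the levels were 411 and 586 CPM in mutants and 398 and 195 CPM in siblings, and the fitted log2 fold was 0.59 (SE 0.38, adjusted p 1.00 in edgeR). That fold was 0.18 without the siblings of day 2 and 1.15 without the siblings of day 1. In siblings of day 1, 3 wells held 48.8% of the UMIs, and without the 3 highest wells of each pool the levels were 364 and 461 CPM in mutants of days 1 and 2, against 212 and 144 CPM in siblings. Transcripts of grna were at 138 and 180 CPM in mutants, against 153 and 95.6 CPM in siblings, lower in mutants on day 1 and higher on day 2.

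Membrane proteins were likewise a larger share in mutants, with 0.257% of UMIs in mutants and 0.187% in siblings of day 1, a log2 ratio of 0.45 (counting interval 0.38 to 0.53), and 0.330% in mutants and 0.252% in siblings of day 2, a log2 ratio of 0.39 (0.33 to 0.45). The class was almost wholly cd63, which held 90.7% of its UMIs. After thinning each well to 1000 UMIs the ratio kept a log2 value of 0.34 for the first day and 0.070 for the second. Without cd63 the log2 ratios were 0.28 on day 1 and -0.03 on day 2, so that the day 2 direction of the class rested on cd63.

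The tetraspanin gene cd63, whose product marks late endosomes and lysosomes, had 2326 and 3049 CPM in mutants of days 1 and 2, against 1676 and 2265 CPM in siblings. The lower mutant pool and the higher sibling pool, 2326 and 2265 CPM, were nearly level, and days differed about as much as genotypes. On days 1 and 2 the median gene tested had log2 ratios of 0.06 and 0.24. Within days those of cd63 were 0.47 (counting interval 0.39 to 0.56) and 0.43 (0.37 to 0.49). The fitted log2 fold was 0.28 with an SE of 0.24 and an interval of -0.27 to 0.83, and 0.29 with an SE of 0.13 when the sort day was a block, and the adjusted p of edgeR's test was 1.00 in both fits. It was 0.050 without the siblings of day 1, 0.15 without the mutants of day 2, 0.44 without the mutants of day 1 and 0.54 without the siblings of day 2. Nearly all wells held the transcript. After thinning each well to 1000 UMIs it was found in 79.7% and 87.2% of mutant wells of days 1 and 2, against 75.6% and 87.4% of sibling wells, and without thinning in 93.5% and 97.6%, against 98.5% and 100% of sibling wells.

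Heavily glycosylated Lamp proteins line the inner face of the lysosomal membrane. The gene lamp2 had 123 and 143 CPM in mutants of days 1 and 2, against 111 and 150 CPM in siblings, a fitted log2 fold of -0.14 (SE 0.35). The gene lamp1b had 33.4 and 34.9 CPM in mutants, against 23.2 and 28.8 CPM in siblings, from 181 UMIs in all, with a fitted log2 fold of 0.22 (SE 0.41). For laptm4a, which encodes a membrane-spanning protein of late endosomes and lysosomes, the levels were 83.2 and 73.6 CPM in mutants and 63.3 and 77.8 CPM in siblings, a fitted log2 fold of -0.01 (SE 0.36). The groups overlapped for lamp2 and laptm4a and did not for lamp1b, and no difference of these 3 genes exceeded its error.

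The proton pump was the most abundant class, and its direction by pool totals differed between days. It took 0.439% of UMIs in mutants and 0.405% in siblings of day 1, a log2 ratio of 0.11 (counting interval 0.06 to 0.17), and 0.486% in mutants and 0.550% in siblings of day 2, a log2 ratio of -0.18 (-0.22 to -0.14). Of all genes tested, 32.9% were higher and 15.8% lower in mutants on both days. Of 13 pump genes outside the list, 6 were higher and 1 was lower on both days. By pool totals, none of the 7 member genes of the class went the same way on both days. On that scale the median log2 ratio of all genes tested was 0.064 on day 1 and 0.24 on day 2. The day 1 interval of the class, 0.059 to 0.17, includes that median, and its day 2 ratio lay below it. Against the median gene, the sign of a gene near 0 on day 1 can differ. Fitted log2 folds were above 0 for 1 gene and below 0 for 6, with a median of -0.20, and when libraries were scaled by their totals alone, which moved the median of all genes to 0.15, 3 were above and 4 below, with a median of -0.03.

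Most of the class was the atp6v0c gene ENSDARG00000057853, which encodes the c subunit of the ring that turns within the membrane and held 64.9% of the class's UMIs. It was the most abundant member of all, with 2731 and 3201 CPM in mutants of days 1 and 2, against 2641 and 3607 CPM in siblings, a fitted log2 fold of -0.24 (SE 0.22). The pools ordered by day rather than by genotype. Its paralogue ENSDARG00000036577 had 30 and 3 UMIs in mutants and 11 and 130 UMIs in siblings, with a log2 ratio of 1.12 for the first day and -4.68 for the second. These UMIs came from few wells. The 3 wells with most held 76.7% and 100% of them in mutants of days 1 and 2 and 90.9% and 79.2% in siblings, and a single sibling well of day 2 held 94.1 of the 130 UMIs, counted after correction for UMI collisions. Without the 3 wells of each pool, 7 and 0 UMIs were left in mutants, against 1 and 27 UMIs in siblings.

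The accessory subunit gene atp6ap2 had 465 and 479 CPM in mutants of days 1 and 2, against 442 and 567 CPM in siblings, a fitted log2 fold of -0.26 (SE 0.29). Its partner atp6ap1b had 427 and 377.5 CPM in mutants, against 314 and 387 CPM in siblings, a fitted log2 fold of 0.04 (SE 0.31). In both the sibling pools differed more from each other than the mutant pools did. The catalytic A subunit is encoded by atp6v1a. The gene ENSDARG00000034534 had 332 and 428 CPM in mutants, against 293 and 478 CPM in siblings, and ENSDARG00000076318 had 209.7 and 189 CPM in mutants, against 190.0 and 207 CPM in siblings, with fitted log2 folds of -0.20 (SE 0.35) and -0.15 (SE 0.32). Subunit d, encoded by atp6v0d1, stood at 203 and 180 CPM in mutants and 165 and 196 CPM in siblings.

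The transcription factor gene tfeb had 239 and 243 CPM in mutants of days 1 and 2, against 189 and 307 CPM in siblings. The mutant pools were level and lay between the sibling pools, with log2 ratios of 0.34 (counting interval 0.08 to 0.59) on day 1 and -0.34 (-0.53 to -0.14) on day 2. The fitted log2 fold was -0.21 with an SE of 0.35. The same turn between days was seen in lgmn, with log2 ratios of 0.27 (0.07 to 0.47) and -0.52 (-0.68 to -0.36).

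**Figure D3:**
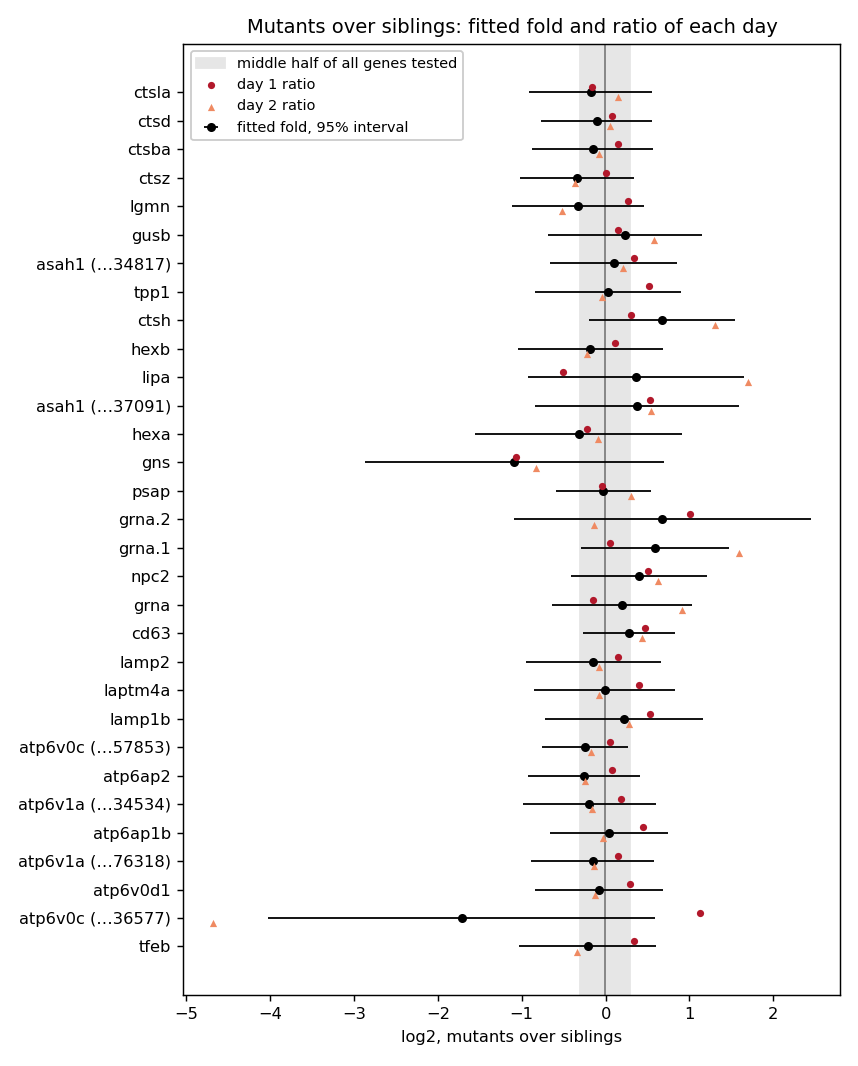
Fitted log2 fold of mutants over siblings for each matched gene with its 95% interval derived from edgeR's test (black). Circles give the log2 ratio of day 1 and triangles that of day 2. Grey spans the lower to the upper quartile of the fitted folds of all genes tested. Fitted folds use TMM scaling and day ratios are scaled by pool totals alone, so their zero lines differ. Every interval includes 0. By pool totals, day 1 and day 2 fall on opposite sides of 0 for all 7 proton pump genes and for tfeb. Of all genes tested, 32.9% were higher and 15.8% lower on both days.

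Wells were then grouped without the matched members, the 88 other lysosomal and autophagy rows described below and the ctsk group. These genes thus could not define the groups. The 9 members not matched to a row, and lysosomal genes outside these lists, were not left out. Of the 9 clusters, 6 took a name from markers: 2 macrophage-like clusters (104 and 30 wells), and 1 each of microglia-like (80), lymphoid-like (51), mesenchyme-like (31) and epidermis and metaphocyte-like wells (27). The other 3 stayed unnamed and were led by si:dkey-6n3.3, tnfrsf9a and ctsk among others (129 wells), by pdk2 and cxcr4 (102), and by ranbp10 in wells of low depth (39). Values are given within clusters and the clusters' sizes are not compared between genotypes, since wells had been standardized within plates. Doublets were not called, since wells had received sorted cells.

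Hydrolases and the proton pump were highest in microglia-like and macrophage-like wells and in the unnamed cluster led by si:dkey-6n3.3. All members together took 1.56% of UMIs in microglia-like wells, 1.51% and 1.497% in the macrophage-like clusters and 1.53% in the cluster led by si:dkey-6n3.3, against 0.943% in the cluster led by pdk2, 0.710% in mesenchyme-like and 0.562% in lymphoid-like wells. Hydrolases spanned 0.420% in microglia-like to 0.130% in lymphoid-like wells, and the proton pump 0.616% in the cluster led by si:dkey-6n3.3 to 0.193% in lymphoid-like wells. Wells of the epidermis and metaphocyte-like cluster had the largest sum, 1.98%, of which psap, npc2 and the granulins made up 1.36%. Without that class the cluster had 0.618%, close to mesenchyme-like wells with 0.622%. These shares describe the wells and carry no test.

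Single genes followed the clusters in different ways. Microglia-like wells had the highest levels of psap (1445 CPM), ctsla (786) and ctsd (709), against 394, 123 and 115 CPM in lymphoid-like wells. The smaller macrophage-like cluster, led by arf4a, timp2 and mfap4, was highest in ctsz (711 CPM) and atp6ap2 (754), and wells led by si:dkey-6n3.3 in tfeb (374 CPM). The order was another for gusb, which had 398 CPM in lymphoid-like and 308 CPM in microglia-like wells and was lowest, at 129 CPM, in the smaller macrophage-like cluster. The most abundant member, atp6v0c (ENSDARG00000057853), reached 4119 CPM in microglia-like and 1270 CPM in lymphoid-like wells. Its paralogue ENSDARG00000036577 was at 292 CPM in mesenchyme-like wells and at 0 to 16 CPM in all other clusters. Of its 138 UMIs in mesenchyme-like wells, 94.1 came from a single sibling well of day 2, and 32.3% of these wells held any. The whole mutant pool of day 2 had 3 UMIs of this gene, in 1 well.

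**Figure D4:**
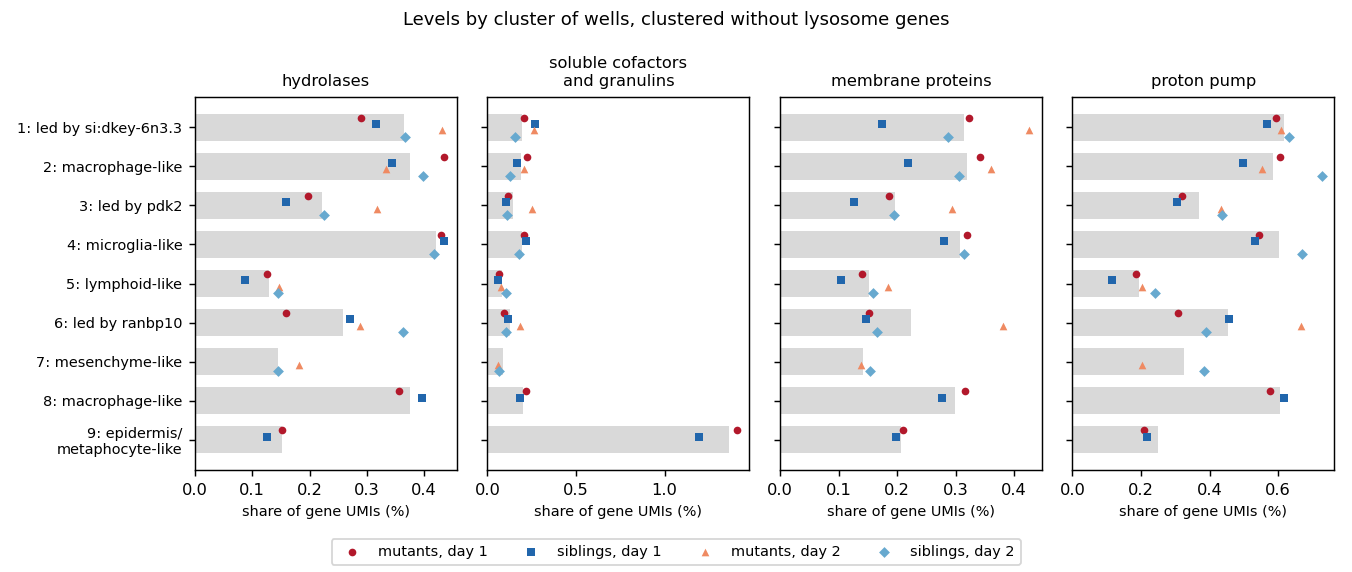
Share of gene UMIs in percent taken by each class in each cluster of wells, with grey bars for all 4 pools together and symbols for each pool with at least 5 wells in the cluster. Hydrolases and the proton pump are lowest in lymphoid-like, mesenchyme-like and epidermis or metaphocyte-like wells, membrane proteins are lowest in mesenchyme-like wells (0.143%) and lymphoid-like wells (0.152%), and soluble cofactors and granulins reach 1.36% in the epidermis and metaphocyte-like cluster.

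The granulin genes separated most clearly. In epidermis and metaphocyte-like wells grna.2 stood at 10891 CPM, and at 35 to 261 CPM in the other 8 clusters. This was so in both genotypes: on day 1 it had 12284 CPM in 13 mutant wells of the cluster and 9131 CPM in 8 sibling wells. The wells of the cluster held 88.4% and 72.1% of the grna.2 UMIs of mutants of days 1 and 2, and 89.9% and 78.5% of those of siblings. The day 2 shares rested on 3 wells in each genotype. A single well held 169 of the 268 UMIs in mutants of day 2, and another 285 of the 498 in siblings. In siblings of day 1, 3 wells held 76.7% of the UMIs, and the 3 highest wells of day 1 mutants held a smaller share. Outside the cluster grna.2 had 161 and 59.5 CPM in mutants of days 1 and 2, against 67.5 and 49.6 CPM in siblings. How far the number of such wells moved with the level of grna.2 in a pool was not tested, and on day 1 the cluster held 13 of 138 mutant wells and 8 of 131 sibling wells.

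The gene grna.1 was also highest in that cluster, at 2002 CPM, and had 450 CPM in the cluster led by si:dkey-6n3.3 and 108 CPM in microglia-like wells. Outside the epidermis and metaphocyte-like cluster it had 326 and 481 CPM in mutants of days 1 and 2, against 290.0 and 169 CPM in siblings. Full-length grna followed another course, with 227 CPM in the macrophage-like cluster led by arf4a and 102 CPM in epidermis and metaphocyte-like wells. Across the wells of a pool, the Spearman correlation of grna with the sum of macrophage markers was 0.23 to 0.39, while that of grna.2 was -0.05 to 0.18. With osteoclast markers grna had 0.15 to 0.41 and with microglia markers 0.07 to 0.35. With the sum of epidermis and metaphocyte markers, keratin genes among them, grna.2 had 0.03 to 0.29. These values describe wells that share a library.

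**Figure D5:**
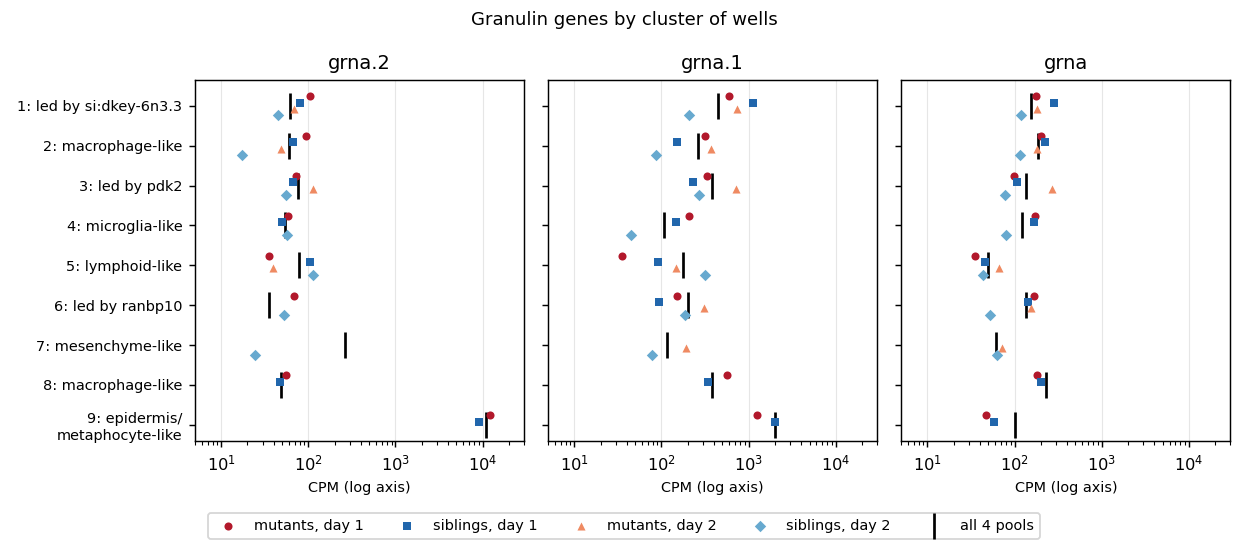
CPM of 3 granulin genes in each cluster on a log axis, with vertical strokes for all 4 pools together and symbols for each pool with at least 5 wells in the cluster and at least 1 UMI. In the cluster of epidermis and metaphocyte-like wells grna.2 lies at 10891 CPM and grna.1 at 2002 CPM, while grna lies at 102 CPM, within the range of the other clusters.

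Mutants and siblings were also set side by side within clusters, where 14 pairs of a cluster and a day had at least 5 wells of each genotype. Of the 21 members with at least 100 CPM on average, cd63 and npc2 were higher in mutants in 13 of 14 pairs, and the other 19 in 4 to 11 pairs. Of all 1204 genes at that level, 4.73% were higher in at least 12 pairs, 1.25% in at least 13 and 0.0831% in 14, and the median gene in 7. For cd63 the pairs included 2920 CPM in mutants and 1515 CPM in siblings of day 1 in the cluster led by si:dkey-6n3.3, and 3330 CPM in mutants and 2735 CPM in siblings of day 2 in the larger macrophage-like cluster. The exception was mesenchyme-like wells of day 2, with 1296 CPM in mutants and 1367 CPM in siblings. For npc2 the levels in the larger macrophage-like cluster were 289 and 263 CPM in mutants of days 1 and 2, against 197 and 262 CPM in siblings, and its exception was again mesenchyme-like wells of day 2, with 0 UMIs in mutants and 158 CPM in siblings. The pairs of a day share 2 pools and are no replicates, and this count was added after the values had been seen.

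Across the wells of a pool the classes went together to differing degrees. Over the pools, soluble cofactors and granulins had Spearman correlations of 0.25 to 0.44 with membrane proteins and 0.37 to 0.54 with the proton pump. With hydrolases they had 0.40 to 0.54, and hydrolases with membrane proteins had 0.39 to 0.63. The Spearman correlation of hydrolases with the proton pump was 0.64 and 0.63 in mutants of days 1 and 2 and 0.69 and 0.55 in siblings, and that of membrane proteins with the proton pump was 0.72 and 0.69 in mutants and 0.56 and 0.54 in siblings. Transcripts of tfeb correlated with the sum of all other members at 0.35 to 0.42, and the sum of all members with that of macrophage markers at 0.34 to 0.57. With the UMIs of the well the correlation was 0.02 to 0.27. All values of a well share its library and depth. Wells under 500 UMIs, which include wells without a cell, had much the same share of lysosomal transcripts, 1.39% and 1.43% in mutants of days 1 and 2 and 1.03% and 1.46% in siblings.

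Beyond the list, 88 rows of other lysosomal and autophagy genes were looked up and 69 passed the filter on low counts, of which 0 passed edgeR's test on genotype alone, 1 had an unadjusted p under 0.05, and 0 passed with the sort day as a block or by DESeq2. Their median log2 fold was -0.05, with 32 above 0 and 37 below. The most abundant were atp6v1g1, a peripheral stalk subunit of the pump, with 1278 and 1628 CPM in mutants of days 1 and 2, against 1145 and 1571 CPM in siblings, the macrophage glycoprotein gene cd68 with 1128 and 1204 CPM in mutants, against 1053 and 1024 CPM in siblings, and the autophagy receptor gene sqstm1 with 1012 and 1112 CPM in mutants, against 722 and 923 CPM in siblings. The gene with the unadjusted p under 0.05 was mcoln1 (ENSDARG00000002285), which encodes a cation channel that lets calcium out of lysosomes. It had 34.1 and 37.98 CPM in mutants, against 49.1 and 111 CPM in siblings, a log2 fold of -1.34 with an SE of 0.48 and an adjusted p of 1.00 by edgeR. The pump genes of this list had a median log2 fold of -0.18 over 13 genes, and the soluble enzymes one of 0.17 over 22, against -0.13 for the hydrolases among the members.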

How the data were processed

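Single sorted wells were measured with CEL-Seq2 on 3 plates of 384 wells. The deposited tables hold estimated counts of UMIs per gene and well. The values invert to whole numbers (tolerance 0.005) in 100% of cases under a correction for collisions among 6-base UMIs, from the values themselves. BWA and Zv9 are named in the submitters' processing notes, and for the counting step no tool was given in the sources used here. On the plate of day 1, siblings fill rows A to H and mutants rows I to P per the labels. That wells are numbered row by row is an assumption on which every day 1 comparison rests. A check on 8 corner wells did not settle it: their median UMIs were 0.0591 and 0.0890 of the plate median on the day 1 plate and the sibling plate of day 2, and 0.799 on the mutant plate.

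Wells with at least 1000 gene UMIs were kept, and UMIs were summed per genotype and sort day and rounded to whole numbers. Genotypes were compared with edgeR's quasi-likelihood test (edgeR 4.0.16, R 4.3.3, TMM scaling, filterByExpr) on genotype alone, with Benjamini-Hochberg adjustment over all 8177 genes at a threshold of 0.05. DESeq2 1.42.0, other scalings and well filters, a block for the sort day and leaving out each pool were alternatives. The labels give both genotypes a shared sort day, so the days pair the pools, and deviations of pools of 1 day from their genotype means correlated at r = 0.124 over 8177 genes. The scripts were tested on simulated data. Wells were clustered with leidenalg 0.10.2 on 2000 genes without the listed lysosomal genes that had a row (20 components, 15 neighbours, resolution 1). A cluster took a name from at least 2 markers among its 10 leading genes. As an exception, 1 leading marker was enough for macrophage-like where no other class had more, as in the larger macrophage-like cluster. Intervals of levels and ratios are 95% exact counting intervals and cover counting error only.

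The genes and lists were chosen with earlier results of these data known. Genes are named where they belong to the list, and of other lysosomal genes the 3 most abundant and the one with an unadjusted p under 0.05.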

Additional observations from a re-analysis of the deposited data

Results flagged for a closer look

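Of the 31 members, 20 had log2 ratios of opposite sign on the 2 sort days, 9 were higher in mutants on both and 2 lower. Of all genes tested, 32.9% were higher and 15.8% lower on both days. The counting intervals of both days excluded 0, on opposite sides, for 3 of the 20 members and for 1 class, which are given here. The share of all genes that did so was not worked out, and the difference between days was not tested. The log2 ratio of mutants over siblings for lgmn was 0.27 on day 1 and -0.52 on day 2. For atp6v0c (ENSDARG00000036577) it was 1.12 on day 1 and -4.68 on day 2, from 30 and 3 UMIs in mutants and 11 and 130 UMIs in siblings. For tfeb it was 0.34 on day 1 and -0.34 on day 2. For the proton pump as a class it was 0.11 on day 1 and -0.18 on day 2. These ratios are scaled by pool totals alone, where the median gene tested had 0.06 on day 1 and 0.24 on day 2. On day 2 genotype and plate cannot be told apart.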

How the results depend on the processing

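No member passed the test in any fit, and over the 18 members named by rule the lowest adjusted p under any alternative was 0.130. Of 269 fitted values of 18 named members under alternatives, 245 kept their sign. Over all genes, 226 were called without the filter on low counts, 27 by DESeq2, 2 with the sort day as a block, and 0 to 10 when a pool was left out (10 without the mutants of day 1). With the block for the sort day, which pairs the pools, no call on a member changed.

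Scaling by library size alone moved the median of all genes to 0.15 and gave log2 folds of 0.012 for ctsba, 0.055 for ctsd, 0.13 for psap, 0.020 for lamp2 and 0.15 for laptm4a. Without the epidermis and metaphocyte-like wells, an alternative chosen after seeing the data, laptm4a was at 0.038. For atp6ap1b the value was -0.0014 without the filter and -0.0084 without the top 2% of wells. When each pool was left out in turn, the log2 fold ran from -0.40 to 0.14 for ctsba, -0.25 to 0.054 for ctsd, -0.41 to 0.094 for ctsla, -0.66 to 0.092 for lgmn, -0.091 to 0.079 for psap, -1.21 to 1.54 for grna.2, -0.37 to 0.13 for lamp2, -0.17 to 0.18 for laptm4a, -4.11 to 0.19 for atp6v0c (ENSDARG00000036577), -0.48 to 0.032 for atp6v0c (ENSDARG00000057853), -0.53 to 0.24 for atp6v1a (ENSDARG00000034534), -0.13 to 0.23 for atp6ap1b and -0.54 to 0.22 for tfeb. It kept its sign but moved by more than 1.5 times for cd63 (0.050 to 0.54), grna.1 (0.18 to 1.15), lamp1b (0.054 to 0.43), ctsz (-0.48 to -0.19) and atp6ap2 (-0.45 to -0.035). The cause was not tested.

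Class log2 ratios moved beyond their counting intervals as follows. Hydrolases had 0.19 on day 1 without the top 2% of wells, and on day 2 -0.31 in macrophage and microglia-like clusters only (where mutants had 2 and siblings 37 microglia-like wells), -0.12 as a mean per well and -0.065 after thinning. Soluble cofactors and granulins had on day 1 0.51 without the top 2% of wells, 0.20 in macrophage and microglia-like clusters only, 0.49 as a mean per well, 0.60 without the top gene, 0.49 after thinning and 0.17 without the epidermis and metaphocyte-like wells. On day 2 they had 0.36 in macrophage and microglia-like clusters only, 0.48 as a mean per well and 0.84 without the top gene. Membrane proteins had on day 1 0.37 as a mean per well, 0.28 without the top gene and 0.34 after thinning, and on day 2 0.19 in macrophage and microglia-like clusters only, 0.23 as a mean per well, -0.032 without the top gene and 0.070 after thinning. The proton pump had on day 1 0.23 without the top gene and 0.032 after thinning, and on day 2 -0.31 in macrophage and microglia-like clusters only, -0.28 as a mean per well and -0.28 after thinning. Depth limits gns, hexa and the asah1 gene ENSDARG00000037091, with 40 to 70 UMIs each.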
